A study of Mus musculus with 4 samples.

Results

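The genes described here encode the machinery that carries mucin granules to the apical membrane of a goblet cell and fuses them with it. They are 40 genes taken by symbol from the 28694 gene rows of each count matrix, namely Rab GTPases, their effectors, priming factors, SNAREs, and actin regulators with 2 calpains. They were measured in single cells of the distal colon, in 2 libraries named DC, and of section 8 of the small intestine, in 2 libraries named Si8. All 4 libraries came from RedMUC298trTg mice aged 6 to 8 weeks, which carry an mCherry-tagged part of the mucin MUC2 in goblet cells, and no other genotype or treatment was included. Cells were released with EDTA and collagenase and sorted by mCherry signal against a C57Bl6 mouse without it. The labels do not give which side of the gate each library holds, nor how many mice. P-values between tissues thus measure the spread between these libraries. Those for the goblet cell states defined below, with the library as a block, measure the spread of state differences across libraries. Either spread may be technical.

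Regulated exocytosis runs in steps. Rab27 on the granule binds effectors of the Slp and Slac2 families, which tether it to the membrane or to a myosin motor. Munc13 proteins prime it, Munc18 proteins guide SNARE assembly, and a granule SNARE zips with syntaxin and SNAP-23 to fuse the membranes. NSF and its adaptor alpha-SNAP then take the SNAREs apart, while gelsolin-family proteins open the cortical actin in the way. Goblet cells release mucin by this route, slowly at rest and in bursts on stimulation.

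The promoters of a Rab, its effector and a Munc18 are shown because these genes have successive roles in one pathway and share a motif. In RefSeq sequences (GRCm38.p6, 250 bases before to 50 after a start) 27 of the 40 genes had an entry. Capitals mark CACGTG and CAGCTG, both forms of the E-box and both palindromes, hence read on both strands. TTTATG was searched on both strands and had no match in these windows. The motifs do not overlap each other, and they were chosen after the sequences had been seen. Rab27a is listed with 2 starts and the one shown is the downstream start, since the upstream window holds none of the motifs. The windows are chr9:73063898-73064197 on the plus strand for Rab27a, chr1:90914850-90915149 on the plus strand for Mlph, and chr8:3630859-3631158 on the plus strand for Stxbp2.
Rab27a: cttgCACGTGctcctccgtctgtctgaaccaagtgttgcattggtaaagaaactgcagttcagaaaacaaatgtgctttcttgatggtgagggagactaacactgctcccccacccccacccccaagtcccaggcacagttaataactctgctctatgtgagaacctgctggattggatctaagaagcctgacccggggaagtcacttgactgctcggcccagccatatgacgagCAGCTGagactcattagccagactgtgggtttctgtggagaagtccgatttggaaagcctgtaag
Mlph: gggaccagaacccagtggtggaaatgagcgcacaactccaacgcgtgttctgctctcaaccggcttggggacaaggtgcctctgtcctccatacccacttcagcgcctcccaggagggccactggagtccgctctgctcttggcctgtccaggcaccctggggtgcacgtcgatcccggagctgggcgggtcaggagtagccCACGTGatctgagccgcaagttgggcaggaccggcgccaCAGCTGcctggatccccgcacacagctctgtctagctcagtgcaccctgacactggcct
Stxbp2: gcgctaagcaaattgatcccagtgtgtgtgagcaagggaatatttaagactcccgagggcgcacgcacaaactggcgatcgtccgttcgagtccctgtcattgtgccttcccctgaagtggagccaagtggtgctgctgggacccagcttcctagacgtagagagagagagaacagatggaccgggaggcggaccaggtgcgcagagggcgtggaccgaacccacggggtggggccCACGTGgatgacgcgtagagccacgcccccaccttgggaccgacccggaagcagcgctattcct
CACGTG stood in the promoters of 7 of the 27 genes (25.9%), Cadps2, Mlph, Napa, Nsf, Rab27a, Stxbp2 and Unc13b, and in a promoter of 8.09% of all 27025 genes of the table. CAGCTG stood in 5 of the 27 (18.5%) and in 18.3% of all genes, and TTTATG in 2 (7.41%), Capn8 and Vamp8, and in 13.6% of all. A gene with several starts counts once, in these genes and in the table alike. Over all 32851 promoters the shares were 7.15%, 16.3% and 11.9%. Rab27a and Mlph hold both CACGTG and CAGCTG. A match is a description of letters and not a site of binding.

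In the order DC 1, DC 2, Si8 1 and Si8 2, total depth was 27136824, 66880457, 26075303 and 53675821 UMIs over 1937, 5098, 1536 and 2256 barcodes. After filtering, 1831, 4724, 1491 and 2197 cells remained, of which 1122, 2346, 1183 and 1188 were goblet-like, with 18 of 18 goblet markers detected in DC and 17 in Si8. Pairs of libraries shared 1 to 16 barcodes. Goblet-like cells were clusters DC c1 and c4 in the colon and Si8 c1 and c3 in the small intestine. DC c4 was shallow, at a median of 3869.5 UMIs over 188 cells. Si8 c3, 845 cells, was led by the immunoglobulin genes Igkc, Igha and Jchain, with the Paneth cell gene Mmp7 in its top 10, and was named from 3 goblet markers in its top 50 genes, so its name rests on few markers. Counts without it, an alternative chosen after the data had been seen, stand beside those with it. Over the goblet-like cells median depth was 12192.5 and 10500.5 UMIs in DC, against 16958 and 18752 in Si8. Listed goblet markers summed to 82173 and 82582 counts per 1000000 UMIs (CPM) in DC, against 270515 and 268686 CPM in Si8. Median mitochondrial shares were 5.53% and 5.25% of UMIs in DC, compared with 2.72% and 2.86% in Si8. Stem cell markers stood at 546 and 357 CPM in DC, compared with 149 and 144 CPM in Si8. The dissociation stress list of 10 genes stood at 13777 and 9666 CPM in DC, against 6138 and 5218 CPM in Si8. Paneth markers stood at 100.02 and 45.2 CPM in DC, compared with 9410 and 10313 CPM in Si8. Small intestinal absorptive markers stood at 58.0 and 66.1 CPM in DC, but 1711 and 2278 CPM in Si8. The enteroendocrine list stood at 15.3 and 24.2 CPM in DC, against 880 and 650 CPM in Si8, where Sct and Tac1 made up most of it while Chga, Chgb and Neurod1 lay at or below 0.541 CPM. Tuft, immune and stromal lists summed to at most 36.4 CPM in any library. The part of these lists in the results below was not tested.

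The first comparison asked how the granule release genes differ between goblet cells of the colon and of the small intestine. Most were lower in DC. The edgeR quasi-likelihood test (adjusted p under 0.05) called 27 of 39 genes, while it called 41.3% of all 11946 genes. In DC 23 of them were lower, with a background of 21.4%, and 4 higher, with a background of 19.9%. The median log2 fold change, DC minus Si8, was -0.60 for these genes and 0.04 for all tested genes. Rab26, a granule Rab, had 1 and 6 UMIs in DC against 8 and 9 in Si8 and was not tested. In 35 of the 40 genes the libraries of the tissues did not overlap, with DC below in 29 and above in 6. Of all 11946 tested genes 34.9% had DC below and 38.6% had DC above without overlap. Levels in this account are CPM on totals scaled by edgeR's TMM factors, so that they match the fold changes, except where plain CPM is named. With library totals alone the median of all genes moved from 0.04 to 0.53. The count was then 10 higher and 12 lower, with 16 of the 27 calls among them, while 62.6% of all tested genes passed. Of the 27, 24 kept their direction, and the 3 that did not are named below. Without cluster Si8 c3 the test called 26 lower and 3 higher, among them 26 of the 27, and Syt7 no longer passed, with 45.9% of all tested genes called.

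**Figure D1:**
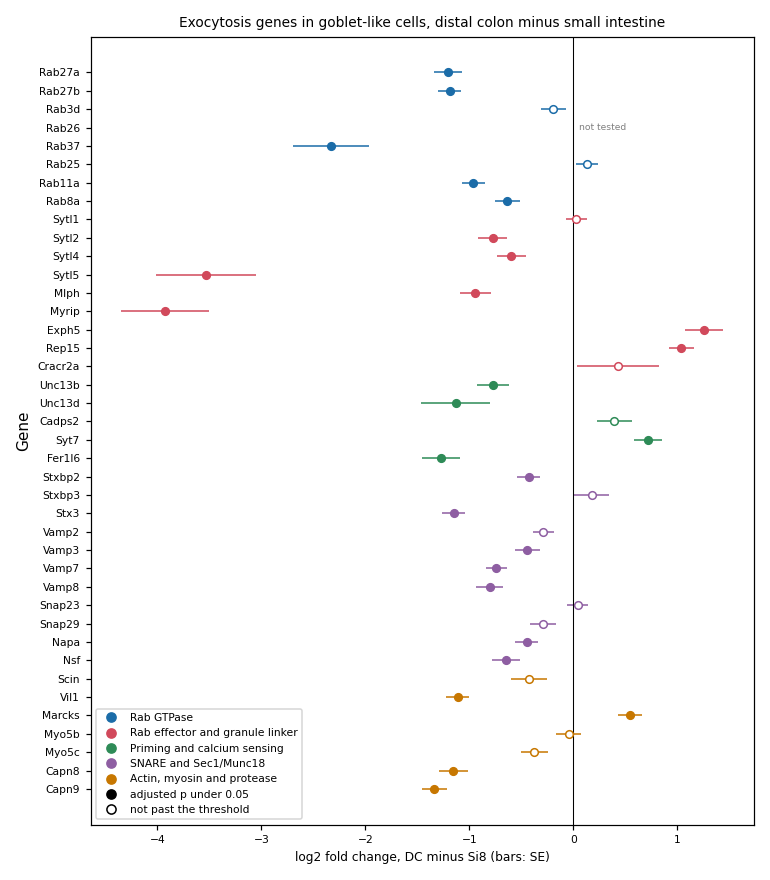
Log2 fold change of each gene (x axis, DC minus Si8, bars are SE, 2 libraries each) over the goblet-like class, with genes down the page by role. Filled points passed adjusted p under 0.05, 23 to the left of 0 and 4, Exph5, Rep15, Syt7 and Marcks, to the right.

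In DC 5 of the 7 Rab GTPases tested fell and 0 rose. Rab27a (chromosome 9, 73044854 to 73097629, GRCm38), the GTPase that marks secretory granules, had 38.2 and 31.1 CPM in DC against 83.7 and 75.5 CPM in Si8. Its paralogue Rab27b had 106 and 109 CPM in DC against 245 and 245 CPM in Si8. Both genes were thus separated cleanly by tissue, at log2 fold changes of -1.20 ± 0.14 (SE; adjusted p = 0.00109) and -1.19 ± 0.11 (adjusted p = 0.00044) in the edgeR test. Rab11a (chromosome 9, 64715299 to 64737758), of the apical recycling endosome, had 133 and 139 CPM in DC against 271 and 259 CPM in Si8. Rab8a, which delivers vesicles to the apical surface, had 41.2 and 46.5 CPM in DC against 64.8 and 71.4 CPM in Si8. Rab37, a Rab of mast cell granules, was low, with 45 and 36 UMIs in DC against 135 and 195 UMIs in Si8 and a log2 fold change of -2.33 ± 0.37. All 3 of these passed the test, with DC below Si8 in every library. Rab3d, of exocrine granules, had 161 and 186 CPM in DC against 198 and 200 CPM in Si8. Rab25, an epithelial relative of Rab11a, had 296 and 310 CPM in DC against 274 and 279 CPM in Si8. Neither passed, at adjusted p = 0.239 and 0.376.

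The Rab effectors split. In DC 5 of 9 fell and 2 rose. Sytl2 (chromosome 7, 90302252 to 90410719), a synaptotagmin-like tether between Rab27 and the membrane, had 153 and 131 CPM in DC against 262 and 223 CPM in Si8. Mlph (chromosome 1, 90915085 to 90951142), melanophilin, which links Rab27a to a class V myosin in mouse melanocytes, had 74.8 and 59.7 CPM in DC against 138 and 120 CPM in Si8. Sytl4, granuphilin, which docks insulin granules, had 10.2 and 10.8 CPM in DC against 17.0 and 14.9 CPM in Si8. These 3 were lower in DC, though the call of Sytl4 did not hold without DC 1, without DC 2 or without Si8 1. Sytl5 had 7 and 11 UMIs in DC against 97 and 58 UMIs in Si8. Myrip, a Rab27 effector that binds myosins, had 17 and 10 UMIs in DC against 155 and 171 UMIs in Si8. Both low genes were lower in DC, at log2 fold changes of -3.53 ± 0.48 and -3.93 ± 0.42.

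Rep15 and Exph5 went the other way. Rep15 (chromosome 6, 147032584 to 147034245), an effector of Rab15, had 755 and 671 CPM in DC against 357 and 338 CPM in Si8, a log2 fold change of 1.04 ± 0.12 (edgeR adjusted p = 0.00120). Exph5, exophilin-5, a Rab27 effector, had 30.6 and 27.3 CPM in DC against 14.3 and 10.0 CPM in Si8. In both genes each DC library lay above each Si8 library. Sytl1 had 37.2 and 39.3 CPM in DC against 38.6 and 36.4 CPM in Si8, and its libraries overlapped. Cracr2a, a calcium-binding regulator of calcium entry, had 31 and 34 UMIs in DC against 18 and 20 UMIs in Si8 and did not pass.

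Of the 5 priming and calcium-sensing genes, 3 were lower and 1 higher in DC. Fer1l6 (chromosome 15, 58510048 to 58665092), a member of the ferlin family of C2 domain proteins, had 65.8 and 49.0 CPM in DC against 154 and 123 CPM in Si8. Unc13b (chromosome 4, 43058953 to 43264871), the Munc13-2 priming factor, had 15.5 and 15.7 CPM in DC against 30.1 and 23.2 CPM in Si8. Syt7, a high-affinity calcium sensor of exocytosis, was higher in DC, at 140 and 116 CPM against 80.3 and 74.8 CPM in Si8. No library of one tissue lay within the range of the other for these 3. Unc13d, the Munc13-4 of immune cell granules, had 13 and 33 UMIs in DC against 35 and 39 UMIs in Si8, and its call did not hold without any one of the 4 libraries. Cadps2, which primes dense-core vesicles, had 19.8 and 24.7 CPM in DC against 19.0 and 15.1 CPM in Si8 and did not pass (adjusted p = 0.112), except without Si8 1.

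Among the SNAREs and their partners 7 of 11 were lower in DC and 0 higher. Stx3 (chromosome 19, 11775118 to 11819403), the syntaxin of apical membranes, had 22.3 and 20.6 CPM in DC against 49.7 and 45.5 CPM in Si8. Vamp8 (chromosome 6, 72385223 to 72390703), the SNARE of exocrine granules, had 175 and 207 CPM in DC against 333 and 334 CPM in Si8. Both fell well beyond the spread of libraries, by 1.15 ± 0.11 and 0.81 ± 0.13 on the log2 scale. Vamp7, a SNARE of late endosomes, had 21.7 and 21.6 CPM in DC against 34.9 and 37.4 CPM in Si8, and Nsf had 17.7 and 21.5 CPM in DC against 32.1 and 29.7 CPM in Si8. Stxbp2, the Munc18-2 partner of syntaxin 3, had 40.1 and 43.1 CPM in DC against 59.2 and 52.9 CPM in Si8. Vamp3, an endosomal SNARE, had 58.6 and 50.3 CPM in DC against 74.2 and 73.5 CPM in Si8. Napa, which encodes alpha-SNAP, had 68.5 and 74.6 CPM in DC against 96.3 and 99.2 CPM in Si8. All 5 of these were lower in DC, Vamp3 and Napa by -0.44 and -0.45 in log2 fold change. With library totals alone, a scaling that moves all genes up together, Stxbp2, Vamp3 and Napa stood at 0.067, 0.055 and 0.047, a turn of direction, and did not pass. Moreover the call of Vamp3 did not hold without DC 2, Si8 1 or Si8 2. Likewise the call of Stxbp2 did not hold without DC 1, DC 2 or Si8 1, nor that of Napa without DC 1 or Si8 2. Why these calls were lost was not tested. Snap23, the plasma membrane partner of syntaxin 3, had 38.6 and 36.2 CPM in DC against 37.3 and 35.4 CPM in Si8. It did not differ beyond the spread, at 0.04 ± 0.10, and the other 3 did not pass either. Stxbp3 had 28.6 and 21.6 CPM in DC against 23.9 and 20.3 CPM in Si8. Vamp2 had 28.3 and 29.7 CPM in DC against 35.7 and 35.2 CPM in Si8, and Snap29 had 16.5 and 15.3 CPM in DC against 20.3 and 18.5 CPM in Si8.

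Of the genes for actin, motors and calpains, 3 of 7 were lower and 1 higher in DC. Vil1 (chromosome 1, 74409376 to 74435559), villin, which bundles and severs actin, had 143 and 139 CPM in DC against 314 and 295 CPM in Si8. Capn9 (chromosome 8, 124576111 to 124618731), a calpain protease of the gut, had 58.6 and 53.0 CPM in DC against 134 and 148 CPM in Si8. Capn8, its gastrointestinal relative, had 12.2 and 11.6 CPM in DC against 29.1 and 23.8 CPM in Si8. These 3 fell without overlap between the tissues, at -1.11 ± 0.11, -1.34 ± 0.12 and -1.15 ± 0.14. Marcks, a membrane-bound actin linker, was higher in DC, at 45.3 and 48.4 CPM against 30.1 and 34.1 CPM in Si8, though the call did not hold without DC 2. Scin had 233 and 203 CPM in DC against 248 and 337 CPM in Si8. Myo5b had 23.8 and 27.3 CPM in DC against 25.2 and 27.6 CPM in Si8, and Myo5c had 80.3 and 71.7 CPM in DC against 107 and 89.7 CPM in Si8. Scin, Myo5b and Myo5c did not pass, at adjusted p = 0.0965, 0.797 and 0.0655. Scin passed as lower in DC without Si8 1, Myo5c passed as lower without Si8 2, and Myo5b passed as higher in DC, at 0.45, with library totals alone.

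The second comparison asked how the genes vary among goblet cells in different states. Each goblet-like cell was placed by the pooled UMIs of its 20 nearest neighbours, found without any of these genes. Cells in the top 20% of a library by Mxd1 were called Mxd1-high, and the rest were split at the median of Clca1 into Clca1-low and Clca1-high. Mxd1 is a Myc antagonist of surface epithelium, and Clca1 a secreted mucus protein. The states are ranges, and 4.90% to 10.9% of cells lay within 10% of a cut. The Mxd1 cut fell at 68.6 and 44.4 CPM in DC, against 1065 and 164 CPM in Si8, so the Mxd1-high state is not the same level of Mxd1 in each library. Median UMIs per cell in the order Clca1-low, Clca1-high and Mxd1-high were 13573, 11955 and 6249.5 in DC 1 and 11383, 9955 and 9825 in DC 2. They were 19979, 15837 and 6294 in Si8 1 and 19370, 18771 and 17146.5 in Si8 2. As a share of their UMIs, Mxd1-high cells held the most Muc2 in each library. In Si8 the Clca1-low state was nearly the same as cluster Si8 c3, which gave 427 of its 473 cells in Si8 1 and 413 of 475 in Si8 2. In DC cluster c4 gave 108 of the 224 Mxd1-high cells of DC 1, with 80 of 469 in DC 2.

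All release genes that passed the test were higher at each step from Clca1-low to Mxd1-high cells. Averaged over both tissues, 15 of 39 genes were higher and 0 lower in Clca1-high than in Clca1-low cells, and 7.81% of all 11299 tested genes were higher and 7.92% lower. In Mxd1-high than in Clca1-high cells 18 were higher and 0 lower, where 9.12% of all tested genes were higher and 6.59% lower (edgeR quasi-likelihood test with library as a block). In either direction 15.7% of all tested genes passed at each step. DESeq2 also called 0 lower, and at an unadjusted p under 0.05 there were 0 lower at the first step and 1, Rab25, at the second. Rab25 had lower values at both steps in 4 of 4 libraries. In all 13 genes rose at both steps, namely Rab27a, Rab27b, Rab37, Rab11a, Sytl2, Unc13b, Fer1l6, Stx3, Vamp8, Vil1, Myo5b, Myo5c and Capn9. How many of all tested genes rose at both steps was not counted, so this list is a description. The median log2 fold change was 0.36 at the first step and 0.51 at the second, against -0.01 and -0.07 for all genes. With library totals alone the medians of all genes moved to -0.20 and -0.28.

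**Figure D2:**
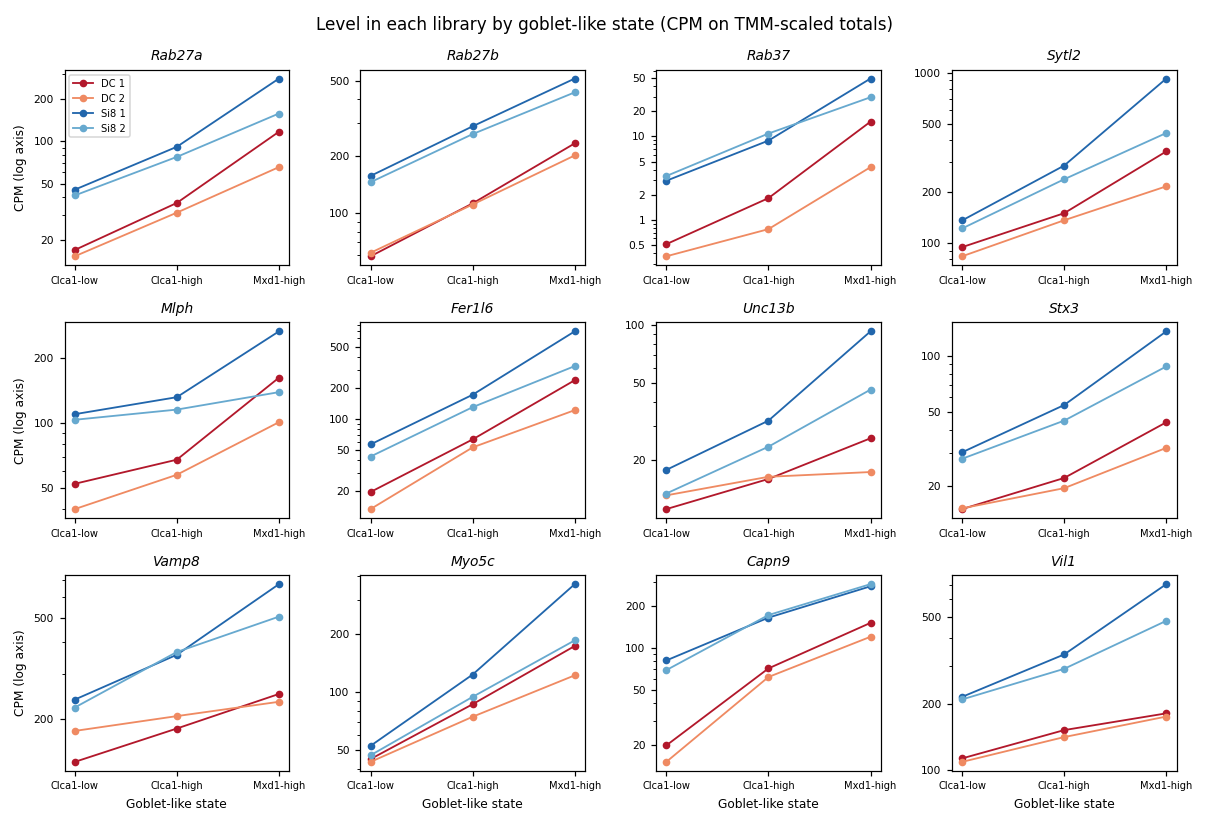
Level of 12 genes (y axis, CPM on a log axis) in Clca1-low, Clca1-high and Mxd1-high cells (x axis), 1 line per library. All 12 genes have higher values at both steps in all 4 libraries, and Rab27a in Mxd1-high cells runs from 65.4 CPM in DC 2 to 277 CPM in Si8 1.

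The Rab27 pair rose in every library. In the order Clca1-low, Clca1-high and Mxd1-high, Rab27a had 16.9, 36.4 and 117 CPM in DC 1, with 15.2, 31.1 and 65.4 CPM in DC 2. It had 45.2, 91.1 and 277 CPM in Si8 1, with 41.2, 77.2 and 157 CPM in Si8 2. Its steps were 1.01 ± 0.16 (edgeR adjusted p = 0.00306) and 1.35 ± 0.16 (adjusted p = 0.000737) on the log2 scale. Rab27b rose by 0.87 ± 0.13 at each step, to 234 and 202 CPM in Mxd1-high cells of DC and 515 and 436 CPM in those of Si8. Rab37 had the steepest second step of the tested Rabs, 2.33 ± 0.25, on counts of 22 to 84 UMIs in Mxd1-high cells. Rab11a rose by 0.44 and 0.53, while Rab3d had -0.24 ± 0.17 at the second step and did not pass at either. Rab8a and Rab25 passed at neither step too.

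Among effectors and priming factors, Sytl2, Unc13b and Fer1l6 rose at both steps. Rep15 passed at the first step alone, at 0.60 ± 0.18, averaged over both tissues. Its first step was 1.21 in DC 1 and 1.18 in DC 2, but -0.24 in Si8 1 and 0.30 in Si8 2, as differences of log2(CPM + 1). Fer1l6 had 19.7, 63.5 and 237 CPM in DC 1, with 13.5, 53.2 and 122 CPM in DC 2 from Clca1-low to Mxd1-high. It had 56.8, 171 and 701 CPM in Si8 1, with 43.4, 130 and 324 CPM in Si8 2. Its steps were 1.72 ± 0.17 (edgeR adjusted p = 0.000197) and 1.62 ± 0.17 (adjusted p = 0.000347), and no state overlapped its neighbour within a tissue. Sytl2 rose by 0.85 ± 0.17 and 1.13 ± 0.18, to 345 and 215 CPM in Mxd1-high cells of DC and 923 and 442 CPM in those of Si8. Mlph and Sytl1 passed at the second step alone, at 0.84 ± 0.16 and 0.80 ± 0.14, though whether their steps differ from each other was not tested. Sytl5 had 0 UMIs in Clca1-low cells of both DC libraries, 0 and 1 UMI in Clca1-high and 7 and 10 UMIs in Mxd1-high cells. In Si8 it had 15, 52 and 30 UMIs in Si8 1 and 7, 27 and 24 UMIs in Si8 2, and it passed at the second step over both tissues, with no fold given in DC because of the counts of 0. Unc13b rose by 0.61 ± 0.15 and 0.80 ± 0.16, while Sytl4, Myrip, Exph5, Cracr2a, Unc13d, Cadps2 and Syt7 passed at neither.

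**Figure D3:**
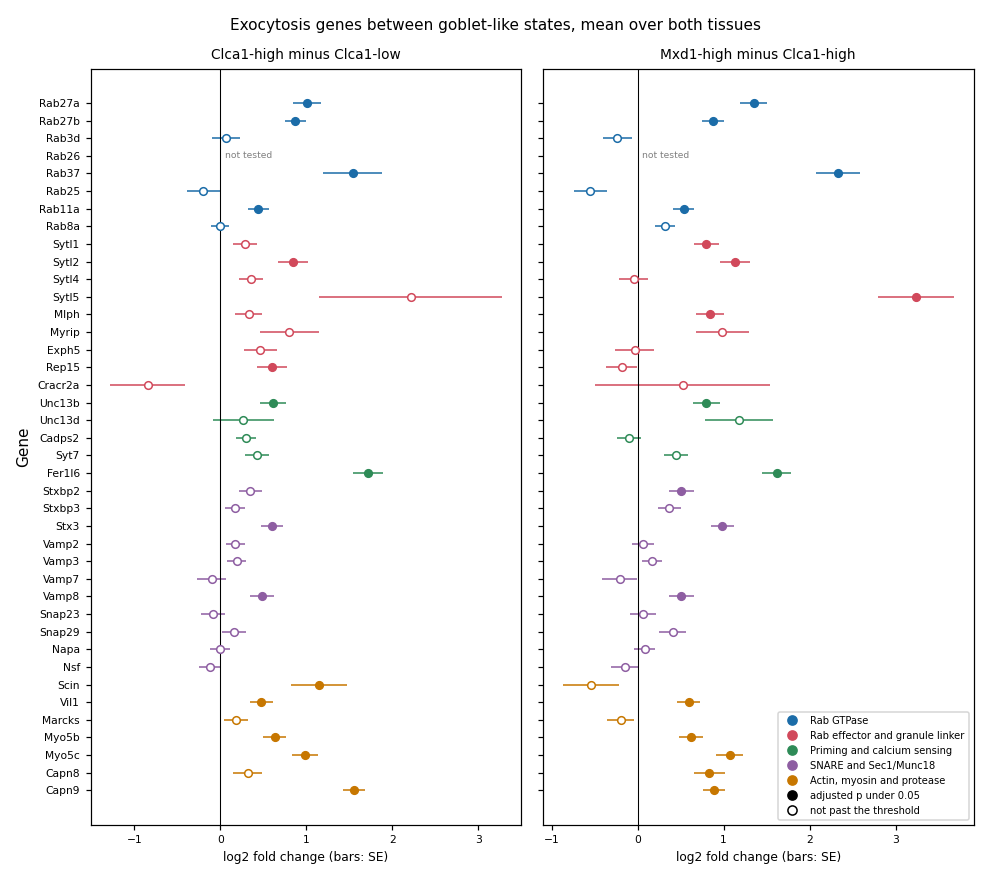
Log2 fold change of each gene (x axis, bars are SE) for Clca1-high minus Clca1-low on the left and Mxd1-high minus Clca1-high on the right, averaged over DC and Si8, with genes down the page by role. Filled points passed adjusted p under 0.05, 15 on the left and 18 on the right, all to the right of 0.

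The fusion machinery moved in part. Stx3 had 15.1, 22.2 and 44.0 CPM in DC 1, with 15.2, 19.6 and 32.1 CPM in DC 2 from Clca1-low to Mxd1-high. It had 30.4, 54.4 and 135 CPM in Si8 1, with 28.1, 44.9 and 87.5 CPM in Si8 2. The granule SNARE Vamp8 rose by 0.48 ± 0.14 and 0.51 ± 0.15, to 250 and 233 CPM in Mxd1-high cells of DC and 677 and 504 CPM in those of Si8. Stxbp2 passed at the second step, at 0.51 ± 0.14. The other 8 of the 11 genes, Stxbp3, Vamp2, Vamp3, Vamp7, Snap23, Snap29, Napa and Nsf, passed at neither. Their log2 fold changes ran from -0.12 to 0.19 at the first step and from -0.21 to 0.41 at the second.

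Of the 7 genes for actin, motors and calpains, 5 rose at each step. Capn9 had 19.8, 71.2 and 152 CPM in DC 1, with 15.1, 61.8 and 120 CPM in DC 2 from Clca1-low to Mxd1-high. It had 81.3, 165 and 278 CPM in Si8 1, with 69.3, 173 and 288 CPM in Si8 2. Its first step, 1.55 ± 0.13, had the smallest adjusted p of the 39 genes there, 6.67e-05. Myo5c, a motor of exocrine secretory vesicles, rose by 0.98 ± 0.15 and 1.07 ± 0.16, and Myo5b, the Rab11 motor, by 0.63 ± 0.13 and 0.62 ± 0.14. Vil1 rose by 0.48 ± 0.13 and 0.59 ± 0.14. Capn8 passed at the second step, at 0.83 ± 0.18, and Marcks at neither. Scin passed at the first step, at 1.15 ± 0.32.

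The counts were far lower without either colon library. Without DC 1 the first step called 2 genes, Fer1l6 and Capn9, and the second 2, Rab37 and Fer1l6, while 1.23% and 0.587% of all tested genes passed. Without DC 2 the first step called 2 again, Fer1l6 and Capn9, and the second 4, Rab27a, Rab37, Sytl5 and Fer1l6, while 0.947% and 1.55% of all passed. The calls of all genes thus fell along with those of the release genes. Without Si8 1 the first step called 19 and the second 19, of which 1 fell, while 23.4% and 15.6% of all passed. Without Si8 2 they called 22, of which 1 fell, and 27, of which 5 fell, while 25.7% and 31.7% of all passed. Within DC alone 3 genes rose and 0 fell at the first step, where 0.478% of all tested genes rose, 0.443% fell and 0.92% passed in all. At the second step in DC 7 rose and 0 fell, where 1.78% rose, 0.0708% fell and 1.85% passed. Within Si8 alone 14 rose and 0 fell at the first step, where 7.94% rose, 7.93% fell and 15.9% passed. At the second step in Si8 19 rose and 1, Scin, fell, where 8.04% rose, 4.93% fell and 13% passed. Without the 25% of cells highest in absorptive markers the counts over both tissues were 15 and 12, while 18.5% and 5.22% of all tested genes passed. Without cluster Si8 c3, with states ranked again in the remaining cells, 11 rose at the first step, while 6.28% of all passed. Rab37, Rab11a, Vamp8 and Scin no longer passed there. At the second step 17 rose and 1, Rab25, fell, while 13.6% of all passed, and Myo5b no longer passed (adjusted p = 0.0501).

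Marker lists moved with the states, in plain CPM. Colonic absorptive markers stood at 158, 258 and 581 CPM in DC 1, with 165, 250 and 377 CPM in DC 2 from Clca1-low to Mxd1-high. Small intestinal absorptive markers stood at 1210, 2047 and 2897 CPM in Si8 1, with 1595, 2579 and 3113 CPM in Si8 2, with Fabp2 and Fabp6 the bulk and Alpi at most 4.30 CPM. Paneth markers stood at 15294, 3128 and 4135 CPM in Si8 1, with 17149, 6614 and 3423 CPM in Si8 2. Goblet markers stood at 50683, 81945 and 191932 CPM in DC 1, against 187780, 326989 and 462948 CPM in Si8 1. They stood at 55216, 79980 and 154953 CPM in DC 2, against 156785, 314516 and 413691 CPM in Si8 2. Stem cell markers stood at 596, 583 and 262 CPM in DC 1, with 357, 408 and 246 CPM in DC 2. In Si8 they stood at 206, 113 and 13.4 CPM in Si8 1, with 224, 109 and 44.1 CPM in Si8 2. Cycling markers were highest in Clca1-low cells of each library, at 138 and 177 CPM in DC, against 136 and 256 CPM in Si8. Mxd1-high cells held 65.4 and 115 CPM of them in DC, against 21 and 63.3 CPM in Si8. Immune markers stood at 0.166 and 32.2 CPM in Clca1-low cells of DC, against 69.6 and 8.07 CPM in those of Si8, and at most 2.32 CPM in the other states. The dissociation stress list stood at 12805, 15011 and 13378 CPM in DC 1, with 7902, 10562 and 12061 CPM in DC 2. In Si8 it was 6828, 5881 and 3734 CPM in Si8 1, with 5845, 5177 and 3934 CPM in Si8 2. Median mitochondrial shares were 4.88%, 5.62% and 8.29% in DC 1, with 4.66%, 5.50% and 6.28% in DC 2. They were 2.97%, 2.76% and 1.11% in Si8 1, with 3.15%, 2.73% and 2.24% in Si8 2, so this share was highest in Mxd1-high cells of DC and lowest in those of Si8. The part of these lists and shares in the results was not tested.

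The third comparison asked whether the steps differ between DC and Si8. None of the 39 genes passed the test of the difference at either step in edgeR or in DESeq2. By edgeR 0.257% of all tested genes passed at the first step (0.195% higher, 0.062% lower) and 0% at the second. By unadjusted p under 0.05, 3 of the 39 genes differed at the first step, with 11.1% of all tested genes, and 8 at the second, with 9.38% of all. The counts of 0 rest on the cells and libraries used. With 1 library left out 0 to 3 genes passed at the first step and 0 to 14 at the second, the 14 without Si8 2, where 14.7% of all passed. With clusters at a resolution of 1.0, 4 and 5 passed, with 0.75% and 1.22% of all. Without cluster Si8 c3, 2 and 1 passed, with 0.163% and 0.317% of all. The gene that fell within Si8 was Scin, scinderin, a calcium-dependent actin-severing protein (chromosome 12, 40059769 to 40134228). From Clca1-low to Mxd1-high, Scin had 80.4, 305 and 525 CPM in DC 1, with 76.5, 251 and 382 CPM in DC 2. It had 235, 269 and 25.9 CPM in Si8 1, with 238, 460 and 220 CPM in Si8 2. Mxd1-high cells were thus above Clca1-high cells in both DC libraries and below them in both Si8 libraries, a difference of 2.48 ± 0.67 that did not pass (adjusted p = 0.359). Within Si8 alone the fall was -1.78 ± 0.49 (adjusted p = 0.0375). Without cluster Si8 c3 the difference between tissues passed for Scin at both steps, at 2.46 ± 0.42 and 2.46 ± 0.44 (adjusted p = 0.0205 and 0.0170), and for Capn9 at the first, at 1.44 ± 0.26 (adjusted p = 0.0279).

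The Mxd1 cut differed by library, so the state was also set at 300 CPM of Mxd1 or more in every library, a rule chosen after the data had been seen. It held 133 and 117 cells in DC and 395 and 109 cells in Si8. Mxd1-high cells then had 508 and 366 CPM of Scin in DC, against 63.3 and 102 CPM in Si8, and Clca1-high cells had 340 and 293 CPM in DC, against 334 and 417 CPM in Si8. The difference between tissues at the second step was 2.68 ± 0.21 (adjusted p = 4.67e-08), and over the alternatives tried its adjusted p ran up to 1 (without DC 2). Rep15 differed at both steps under this rule, by 1.05 ± 0.19 and 0.74 ± 0.20. It had 428, 980 and 1050 CPM in DC 1, with 393, 857 and 906 CPM in DC 2, against 362, 347 and 211 CPM in Si8 1, with 295, 362 and 246 CPM in Si8 2. In DC Clca1-high cells held more Rep15 than Clca1-low cells, and in Si8 both libraries were lowest in Mxd1-high cells. Of the 39 genes 3 were higher in this sense and 0 lower at the first step, where 2.62% of all tested genes were higher, 2.09% lower and 4.71% either. At the second step 4 were higher and 0 lower, where 2.19% were higher, 0.963% lower and 3.16% either. Averaged over tissues under this rule 26 were higher and 0 lower at the first step, where 16% were higher, 19% lower and 35.1% either. At the second step 19 were higher and 4 lower, where 17.1% were higher, 20.7% lower and 37.8% either.

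**Figure D4:**
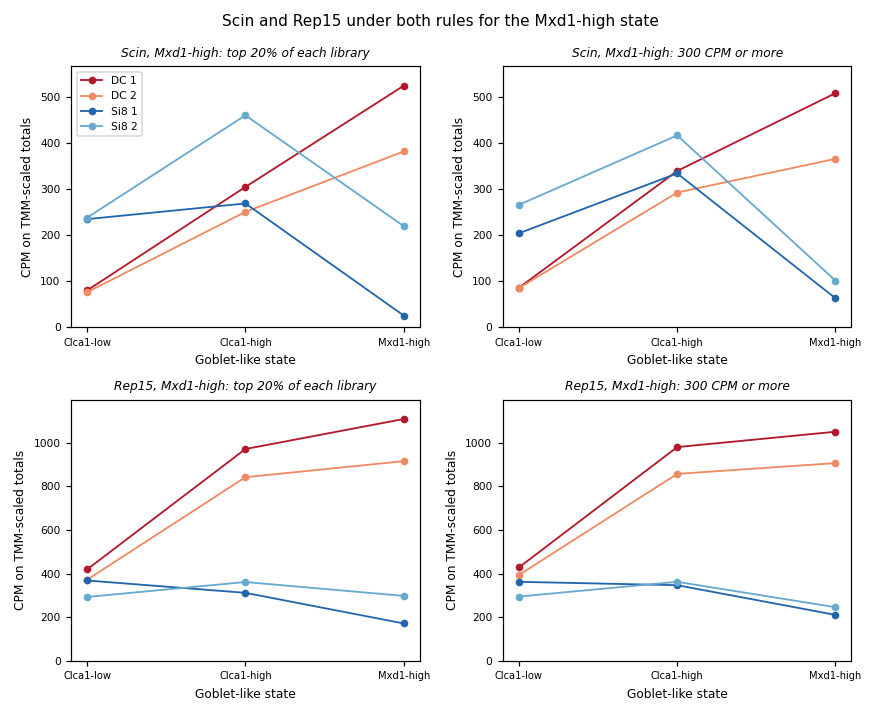
Level of Scin and Rep15 (y axis, CPM) by goblet-like state (x axis) in each library, under the top 20% rule on the left and the 300 CPM rule on the right. Scin in Mxd1-high cells is highest in DC 1 at 525 and lowest in Si8 1 at 25.9 CPM under the first rule, and Rep15 in Mxd1-high cells is 1109 and 915 CPM in DC, against 171 and 298 CPM in Si8.

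In Mxd1-high cells alone fewer genes passed between tissues, and errors were wider. Rab27a stood at -1.32 ± 0.49, Rab27b at -1.18 ± 0.38, Sytl2 at -1.35 ± 0.52 and Stx3 at -1.61 ± 0.42, none of which passed, with adjusted p from 0.0572 to 0.146. There 1 gene was lower in DC, Vil1 at -1.79 ± 0.42 (adjusted p = 0.0386), and 1 higher, Rep15 at 2.08 ± 0.44 (adjusted p = 0.0280), where 10% of all tested genes passed. In Clca1-high cells alone 27 of 38 passed, where 42.2% of all tested genes passed. In Clca1-low cells alone 21 of 38 passed, where 31.2% of all tested genes passed. Rep15 stood at 0.26 in Clca1-low cells alone and did not pass (adjusted p = 0.267).

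Other genes of the pathway, 85 from a list, were set beside them. Between tissues 60 were tested, of which 22 were lower and 6 higher in DC, that is 46.7% of those tested, beside the 41.3% of all genes (21.4% lower, 19.9% higher). The lower genes were led by Espn, which bundles actin in microvilli, at -2.42 ± 0.12, and by Anxa2, which binds membranes and actin, at -1.34 ± 0.12. The higher ones were led by Rab3b, with 85 and 186 UMIs in DC against 0 and 5 UMIs in Si8, and by the Rab11 adaptors Rab11fip5 and Rab11fip1. Rab11fip5 had 33 and 49 UMIs in DC against 0 and 2 UMIs in Si8, and no fold is given for either on such counts. Rab11fip1 was higher by 0.88 ± 0.18. Cortical actin and myosin genes were lower in 11 of 17 cases and higher in 0, and exocyst genes, which tether vesicles, were lower in 1 of 9 and higher in 1. Between states 11 of 59 were higher at the first step and 16 at the second, beside 7.81% and 9.12% of all genes, and 0 were lower at either. Espn rose by 1.76 ± 0.20 and 2.29 ± 0.18, and the calpain Capn5 by 1.17 ± 0.16 and 1.42 ± 0.15. Of these 59 genes 1, Espn, differed between tissues at the first step, by -2.92 ± 0.40 (adjusted p = 0.0161).

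The last description set goblet-like cells beside the other classes of the same libraries, in plain CPM and with no test. Rep15 stood at 901 and 792 CPM in goblet-like cells of DC, against 301 and 283 CPM in those of Si8. In colonic absorptive-like cells it stood at 350 and 258 CPM, and in small intestinal absorptive-like cells at 91.5 and 79.7 CPM. Rab27a stood at 45.6 and 36.7 CPM in goblet-like cells of DC and at 70.7 and 63.3 CPM in those of Si8, beside 15.7 and 13.1 CPM in colonic and 27.1 and 20.5 CPM in small intestinal absorptive-like cells. Capn9, Fer1l6, Scin and Sytl2 were likewise higher in goblet-like than in absorptive-like and cycling-like cells of each library. Vil1 was the reverse in Si8, at 266 and 248 CPM in goblet-like against 495 and 474 CPM in absorptive-like cells, and so was Marcks. General fusion genes such as Napa and Vamp3 varied less, with Napa between 64.5 and 88.0 CPM over the goblet-like, absorptive-like and cycling-like cells of the 4 libraries.

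**Figure D5:**
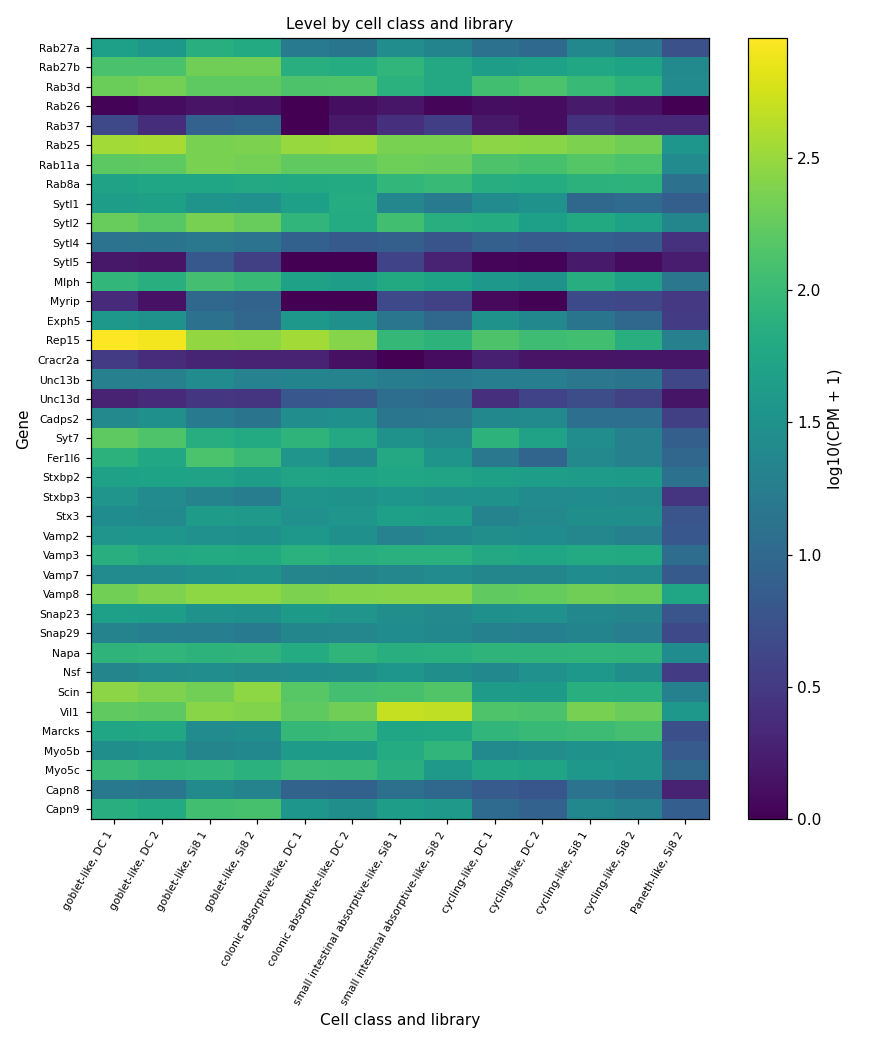
Level of each gene (rows) in each cell class and library (columns), as log10(CPM + 1) by colour, in plain CPM. Rab27b, Sytl2 and Scin are brighter in the goblet-like columns on the left, and Rep15 is so within each tissue only. Vil1 is brightest in small intestinal absorptive-like cells.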

How the data were processed

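Raw UMI counts per gene and cell were deposited. The submitters' processing notes name Cell Ranger 2.1.1 and the build mm10, and the libraries came from a droplet kit that reads transcript ends, per the labels' protocols. The deposited values are whole numbers with no normalization, and the sources used here give no annotation version. Coordinates come by Ensembl identifier from GENCODE M21, where all 40 genes were found and 10 overlap another gene on the same strand, so the split of their reads is uncertain (Rab27a, Rab26, Rab11a, Myrip, Cracr2a, Cadps2, Syt7, Fer1l6, Vamp3 and Nsf).

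Cells under 500 detected genes or over 20% mitochondrial UMIs were dropped. Scrublet doublet scores (scanpy 1.11.5; its own threshold marked 0.171%) ranked the cells, and a share that grows with the cells loaded was removed, 279 in all, which left 10243 of 10827. Tissues were clustered apart with Leiden (leidenalg 0.10.2, resolution 0.2) on 2000 variable genes without the genes described, 30 components and 5 neighbours per library. The resolution was chosen after clusters had been seen. At 1.0, Si8 clusters led by immunoglobulin genes or holding Mxd1 were left unnamed. So were several DC clusters, among them 768 cells led by Acta1 and Cyr61. An Si8 cluster of 83 cells led by Retnlb and Reg4 was named Paneth there. Goblet-like cells at 1.0 numbered 827, 1864, 528 and 761 in DC 1, DC 2, Si8 1 and Si8 2. A cluster was named from its top 50 genes, with at least 3 fixed markers. UMIs were summed per library, or per library and state (12 sums), and tested with edgeR 4.0.16 (R 4.3.3, quasi-likelihood, TMM, minimum count of 10, Benjamini-Hochberg over all genes, threshold of 0.05), and checked on simulated data. DESeq2 1.42.0 was an alternative. With 2 libraries a tissue, the library is the replicate.

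The genes and lists were chosen with earlier results of these data known. All 40 were accounted for by role, those at a mean of 10 CPM or more in full. Of other pathway genes up to 3 a direction with the smallest adjusted p were named, except where a result is not reported here.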

Additional observations from a re-analysis of the deposited data

Results flagged for a closer look

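The difference between DC and Si8 in a state step, DC minus Si8, passed the test for 7 gene and step pairs when Mxd1-high was set at 300 CPM in every library, a rule chosen after the data had been seen. None of the 7 passed under the top 20% rule with all goblet-like cells, but without cluster Si8 c3 Scin passed at both steps, and Capn9 at the first, under that rule too. At the step from Clca1-low to Clca1-high the differences were 1.05 for Rep15, 1.19 for Scin and 0.92 for Capn9, so each step was larger in DC. At the step from Clca1-high to Mxd1-high they were 2.68 for Scin, 1.14 for Capn8, 0.83 for Mlph and 0.74 for Rep15. Adjusted p ranged from 4.67e-08 to 0.0385 over these pairs. Scin was lower in Mxd1-high than in Clca1-high cells of both Si8 libraries and higher in those of both DC libraries, while Capn8 and Mlph had a higher level in Mxd1-high cells of both tissues.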

How the results depend on the processing

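The direction of called genes held in all alternatives except those named here. Of 3209 values of single genes under alternatives, 2880 kept their call, 197 no longer passed, 126 newly passed and 6 turned direction. The 6 were Stxbp2 (0.067), Vamp3 (0.055), Napa (0.047) and Myo5b (0.45) between tissues with library totals alone, Sytl4 between tissues in Mxd1-high cells alone (0.019), and Fer1l6 in the second-step difference between tissues with clusters at a resolution of 1.0 (1.01). The causes were not tested. Between tissues no count is given with 1 library left out, since a tissue then holds only 1. The calls between tissues numbered 27, where 41.3% of all tested genes passed. They numbered 2 in Mxd1-high cells alone, where 10% of all tested genes passed. Fewer cells enter those sums, and the part of cell number was not tested. With cells thinned to 2000 UMIs (no cell was shallower) the calls were 18, where 24.2% of all passed. At the first step they numbered 15, and 2 to 22 with 1 library left out. They were 9 with library totals alone, 8 with thinned cells and 9 with states from each cell's own UMIs. With Mxd1-high as the top 10% they were 22, and at 300 CPM 26. In that order 20.3%, 8.41%, 11.1%, 22.4% and 35.1% of all tested genes passed. At the second step the calls numbered 18, with fewer without either colon library and more without either Si8 library. With states from each cell's own UMIs they were 10, where 3.7% of all tested genes passed. The differences between tissues numbered 0 at each step, and 0 to 3 and 0 to 14 with 1 library left out. At a resolution of 1.0 they were 4 and 5, at 300 CPM 3 and 4, and without cluster Si8 c3 2 and 1. The shares of all genes at that resolution, at 300 CPM and without the cluster stand above. With thinned cells 1 passed at the second step, where 0.213% of all tested genes passed. In the state fits the library is the block. With no replicate block the calls were 6 at the first step and 11 at the second, while 4.84% and 4.08% of all tested genes passed. Between tissues the replicate number as a block gave 30 calls, while 50.1% of all tested genes passed. The deviations of same-numbered libraries correlated at r = 0.225 over genes. With 2 pairs, and no label that ties a number to an animal or day, the numbers were not taken as pairs. With 2 libraries a tissue the calls rest on few residual degrees of freedom.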
